A study of Mus musculus with 4 samples.

Results

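Glul, Rhbg, Lgr5, Axin2, Oat, Slc1a2, Tbx3, Znrf3, Rnf43 and Cyp1a2, 10 genes of pericentral hepatocytes and of Wnt signalling, were followed in pooled mouse liver RNA. They were picked by name, as probe sets whose platform annotation gives 1 gene symbol, and are 10 of the 22180 genes so annotated on the array. Each of 4 groups had 1 Affymetrix array, hybridised with RNA combined from several livers of C57BL/6 mice of both sexes. The pools came from 6 Chrebp-/- mice after 2 weeks on a diet of 70% fructose, 4 wild-type (WT) mice after 2 weeks on it, 7 WT mice after 3 weeks on it, and 7 WT mice on regular chow. Mice on the fructose diet were older than 2 months, and all groups shared the strain background. Mlxipl encodes ChREBP, which switches on genes of sugar use and fat synthesis when hepatocytes take up sugar. The study set Chrebp-null mice against WT mice at 2 weeks of fructose (the Chrebp-null comparison) and WT mice at 3 weeks of fructose against chow-fed WT mice (the fructose comparison). The 2 comparisons share no array. With 1 array per group there is no replicate, so no value has an error, no difference was tested, and the spread between mice within a pool cannot be seen.

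In the liver lobule, endothelial cells around the central vein release Wnt ligands and R-spondins, and the hepatocytes next to them respond through beta-catenin and TCF/LEF transcription factors. Those hepatocytes switch on glutamine synthesis, ammonium and glutamate transport and drug-metabolising cytochromes, while hepatocytes near the portal vein carry out urea synthesis and gluconeogenesis. Axin2, Lgr5, Rnf43, Znrf3 and Tbx3 are induced by Wnt signals or act on them. Glul, Rhbg, Oat, Slc1a2 and Cyp1a2 carry out the metabolic work of the zone.

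The RefSeq table of promoters (GRCm38.p6, from 250 bases before to 50 after a gene's start) held 7 windows for 6 of the genes: Axin2, Cyp1a2, Glul, Oat, Rnf43 and Slc1a2. For motifs, 3 short words were searched on both strands: CTTTGA, the core bound by TCF/LEF factors, GCGTG, the core bound by the aryl hydrocarbon receptor that controls Cyp1a2, and CACGTG, the E box that occurs paired in ChREBP response elements. None of them overlaps another in these windows. Windows of Axin2 and Rnf43, which regulate the Wnt signal, and of Slc1a2 and Cyp1a2, which hold the TCF/LEF core, are shown 5′ to 3′ on the gene's strand, with every motif match in capitals.
Axin2, chr11:108920099-108920398, plus strand: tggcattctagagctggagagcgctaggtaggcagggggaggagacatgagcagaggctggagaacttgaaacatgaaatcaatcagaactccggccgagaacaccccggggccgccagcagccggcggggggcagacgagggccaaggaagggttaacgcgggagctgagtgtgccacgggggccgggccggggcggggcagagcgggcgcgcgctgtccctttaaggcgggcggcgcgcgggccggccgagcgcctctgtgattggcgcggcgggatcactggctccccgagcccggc
Rnf43, chr11:87662837-87663136, plus strand: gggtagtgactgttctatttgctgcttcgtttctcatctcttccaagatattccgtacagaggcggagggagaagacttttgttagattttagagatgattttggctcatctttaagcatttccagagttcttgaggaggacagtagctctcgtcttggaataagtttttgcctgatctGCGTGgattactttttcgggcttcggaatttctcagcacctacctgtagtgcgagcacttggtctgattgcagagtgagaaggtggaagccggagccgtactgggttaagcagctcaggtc
Slc1a2, chr2:102706188-102706487, plus strand: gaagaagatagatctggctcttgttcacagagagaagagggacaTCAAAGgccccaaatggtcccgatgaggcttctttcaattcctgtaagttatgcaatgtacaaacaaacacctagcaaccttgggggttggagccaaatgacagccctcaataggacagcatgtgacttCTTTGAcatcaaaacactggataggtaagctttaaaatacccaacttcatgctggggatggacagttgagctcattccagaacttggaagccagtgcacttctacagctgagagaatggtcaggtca
Cyp1a2, chr9:57683606-57683905, minus strand: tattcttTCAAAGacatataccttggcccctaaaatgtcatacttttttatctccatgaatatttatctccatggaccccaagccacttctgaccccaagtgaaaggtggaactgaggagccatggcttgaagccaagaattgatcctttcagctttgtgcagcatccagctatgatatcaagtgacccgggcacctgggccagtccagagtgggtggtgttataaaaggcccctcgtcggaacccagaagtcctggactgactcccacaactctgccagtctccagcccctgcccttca
The Slc1a2 window held CTTTGA or its reverse complement TCAAAG at 2 places, at -206 and -77 counted from the gene's start, and the Cyp1a2 window held it once, at -243. Of 32851 promoter windows of this length in the table, 16.0% held this motif. GCGTG was found once, in the Rnf43 window shown, at -71, against 32.4% of all windows with at least 1 match. CACGTG was found in none of the 7 windows, against 7.15% of all windows. These are matches of letters in short windows and not sites of binding.

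The values are log2 levels, 1 per probe set and array, and differences are log2 differences between 2 arrays, so that a difference of 1 is 2-fold. Only genes with at least 1 of the compared arrays at 3.52 or more entered a comparison. That value, called the floor here, is the middle of all genes' mean levels. All 10 genes lay above it on all 4 arrays, the lowest value being 4.94. Array medians over all probe sets were 3.11 to 3.17. The targeted gene Mlxipl read 8.09 in the Chrebp-null pool and 9.83 in the WT pool at 2 weeks, a difference of -1.74, and 9.64 and 9.25 in the 3-week fructose and chow pools. Whether its probe set lies in the deleted part of the gene was not analysed here. Markers of hepatocytes, among them Alb and Ttr, were high in all pools, and their median difference was -0.01 in the Chrebp-null comparison and -0.02 in the fructose comparison (9 genes). The 2 WT fructose pools give the available yardstick, although they differ in mice and in weeks on the diet and are not replicates. Over 11648 genes the SD of their difference was 0.43. In bulk liver RNA, fewer pericentral cells and less RNA per pericentral cell cannot be told apart.

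The genes as a group sat lower after 3 weeks of fructose than on chow. In the fructose comparison 9 of the 10 differences were below 0, where 56.5% of all 11717 genes assessed were below 0. The median was -0.49, against -0.05 over all genes. At least 2-fold lower was 1 of the 10, Tbx3, against 1.16% of all genes, and none was at least 2-fold higher, against 0.64% of all genes. At least 1.5-fold lower were 5 of the 10 (Rhbg, Lgr5, Axin2, Tbx3 and Rnf43), against 7.05% of all genes. Axin2 only just passed, at 1.504-fold, and fell short after quantile normalization, at -0.56. With probe sets averaged Axin2 (-0.19) and Lgr5 (-0.50) both fell short of 1.5-fold. The range from the 5th to the 95th percentile of all differences was -0.66 to 0.51, and Rhbg, Lgr5, Tbx3 and Rnf43 lay below it. Endothelial markers lay the other way, with 9 of 10 above 0, against 43.5% of all genes, and a median of 0.31. Their part in the result was not tested.

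In the Chrebp-null pool the same genes sat slightly above WT at 2 weeks. Of the 10 differences 9 were above 0, against 63.4% of all 11631 genes assessed, and the median was 0.28, against 0.10 over all genes. None of the 10 was at least 2-fold higher or lower, against 2.03% and 1.43% of all genes. At least 1.5-fold higher were 2 of the 10, Oat and Tbx3, against 9.16% of all genes. Oat only just passed, at a ratio of 1.5025. Removing a smooth trend of the differences along mean level shifted the median of all genes by -0.10. After that 7 of the 10 differences were above 0, against 49.4% of all genes, and the median of the 10 was 0.20. Oat then stood at 0.57, short of 1.5-fold. Quantile normalization also left 7 above 0, against 55.4% of all genes. Sex-linked genes moved with this comparison. Xist read 7.04 in the Chrebp-null pool against 8.56 in the WT pool at 2 weeks, and the Y-linked Uty, Kdm5d and Eif2s3y differed by 0.53, 0.76 and 0.84. In the fructose comparison Xist differed by -0.07 and the same Y-linked genes by 0.64, 0.04 and -0.12. The part of the sex makeup of the pools in these results was not tested.

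**Figure D1:**
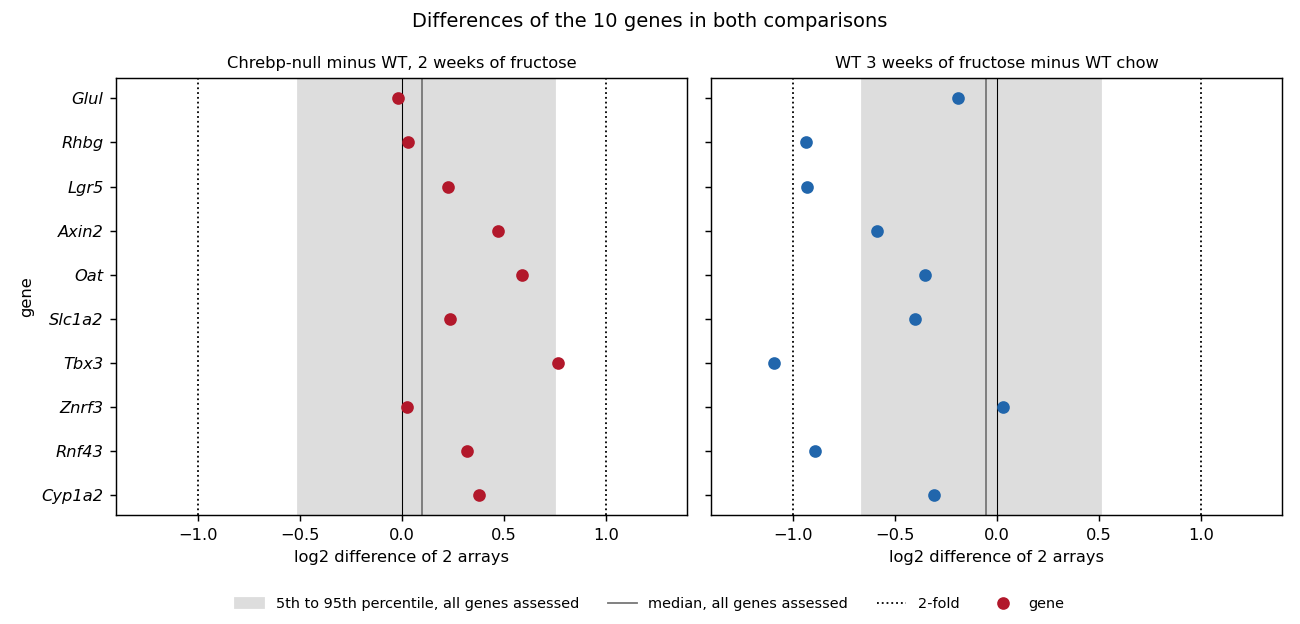
Log2 difference of each of the 10 genes (blue or red points) in the Chrebp-null comparison (left) and the fructose comparison (right), 1 array minus 1 array. Grey bands run from the 5th to the 95th percentile of all genes assessed, and dotted lines mark 2-fold. On the right Rhbg, Lgr5, Tbx3 and Rnf43 lie left of the band and Tbx3 passes 2-fold, while on the left only Tbx3, at 0.77, lies just outside the band.

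Feedback regulators and targets of Wnt signalling, Znrf3 aside, held most of the larger differences in the fructose comparison. With the 2-week WT pool over chow, Oat (-1.12) and Rhbg (-0.99) had the largest of the 10. Tbx3, a T-box transcription factor expressed in pericentral hepatocytes, read 7.77 in the Chrebp-null pool against 7.01 in the WT pool at 2 weeks, and 6.50 in the 3-week fructose pool against 7.59 in the chow pool. The differences were 0.77 and -1.09, the second a ratio of 0.468. Its 3-week fructose level was the lowest of the 4 and its Chrebp-null level the highest.

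Rnf43, a membrane ubiquitin ligase that removes Frizzled receptors from the cell surface, read 7.44 in the Chrebp-null pool against 7.12 in the WT pool at 2 weeks, and 6.28 in the 3-week fructose pool against 7.17 in the chow pool. The differences were 0.32 and -0.89. The 3-week fructose pool stood apart, 0.83 below the next pool, and the other 3 pools lay within 0.32 of each other. Znrf3, the paralogous ligase with the same role, read 5.96 in the Chrebp-null pool against 5.93 in the WT pool at 2 weeks, and 5.76 in the 3-week fructose pool against 5.73 in the chow pool. Both differences were 0.03, and no pool stood apart.

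Axin2, a scaffold of the complex that degrades beta-catenin and a standard readout of Wnt activity, read 5.86 in the Chrebp-null pool against 5.39 in the WT pool at 2 weeks, and 4.94 in the 3-week fructose pool against 5.53 in the chow pool. The differences were 0.47 and -0.59, and the order of the pools was that of Tbx3 and Rnf43. A second, dimmer Axin2 probe set read below the floor on every array, between 2.97 and 3.30, and differed by 0.28 and 0.21. Lgr5, the R-spondin receptor, read 5.66 in the Chrebp-null pool against 5.43 in the WT pool at 2 weeks, and 5.02 in the 3-week fructose pool against 5.95 in the chow pool. The differences were 0.23 and -0.93, and chow was the highest pool. The second Lgr5 probe set lay near the floor, between 3.31 and 3.57, and differed by -0.26 and -0.07.

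Among the metabolic genes of the zone, Rhbg had a different shape. It encodes an ammonium transporter of the Rh glycoprotein family. Rhbg read 5.68 in the Chrebp-null pool against 5.65 in the WT pool at 2 weeks, and 5.71 in the 3-week fructose pool against 6.64 in the chow pool. The 3 fructose pools lay within 0.06 of each other, and the chow pool lay 0.93 above the highest of them. Of 12194 genes at or above the floor on any array, 9 (0.0738%) had a chow level at least that far above all 3 fructose pools. That count was made after the values of Rhbg were seen, and all 3 gaps rest on the same chow array. A probe set annotated to both Tsacc and Rhbg, which the selection left out, read between 3.82 and 4.16 and differed by 0.27 in the Chrebp-null comparison and 0.06 in the fructose comparison.

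Glul, glutamine synthetase, which fixes ammonium into glutamine in the last hepatocytes before the central vein, read 11.21 in the Chrebp-null pool against 11.23 in the WT pool at 2 weeks, and 11.12 in the 3-week fructose pool against 11.31 in the chow pool. The differences were -0.02 and -0.19, small beside the yardstick. The second Glul probe set went another way, with 4.95 in the Chrebp-null pool against 5.29 in the WT pool at 2 weeks, and 6.06 in the 3-week fructose pool against 5.27 in the chow pool. Its differences were -0.34 and 0.79, and with the mean of both probe sets the fructose difference of Glul was 0.30, above 0. Which stretch of the transcript each probe set covers was not analysed here.

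Oat, ornithine aminotransferase, which feeds glutamate to glutamine synthetase, read 10.75 in the Chrebp-null pool against 10.16 in the WT pool at 2 weeks, and 10.93 in the 3-week fructose pool against 11.28 in the chow pool. The differences were 0.59 and -0.35. The 2-week WT pool was the low one for Oat, 0.59 under the next pool. Slc1a2, a glutamate transporter whose liver expression is pericentral, read 6.68 in the Chrebp-null pool against 6.45 in the WT pool at 2 weeks, and 6.53 in the 3-week fructose pool against 6.93 in the chow pool. Its differences of 0.23 and -0.40 were both under the yardstick. Cyp1a2, a cytochrome that oxidises caffeine and aromatic amines and a target of the aryl hydrocarbon receptor, read 11.04 in the Chrebp-null pool against 10.66 in the WT pool at 2 weeks, and 10.92 in the 3-week fructose pool against 11.23 in the chow pool. The differences were 0.38 and -0.31, also under the yardstick, with chow highest.

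**Figure D2:**
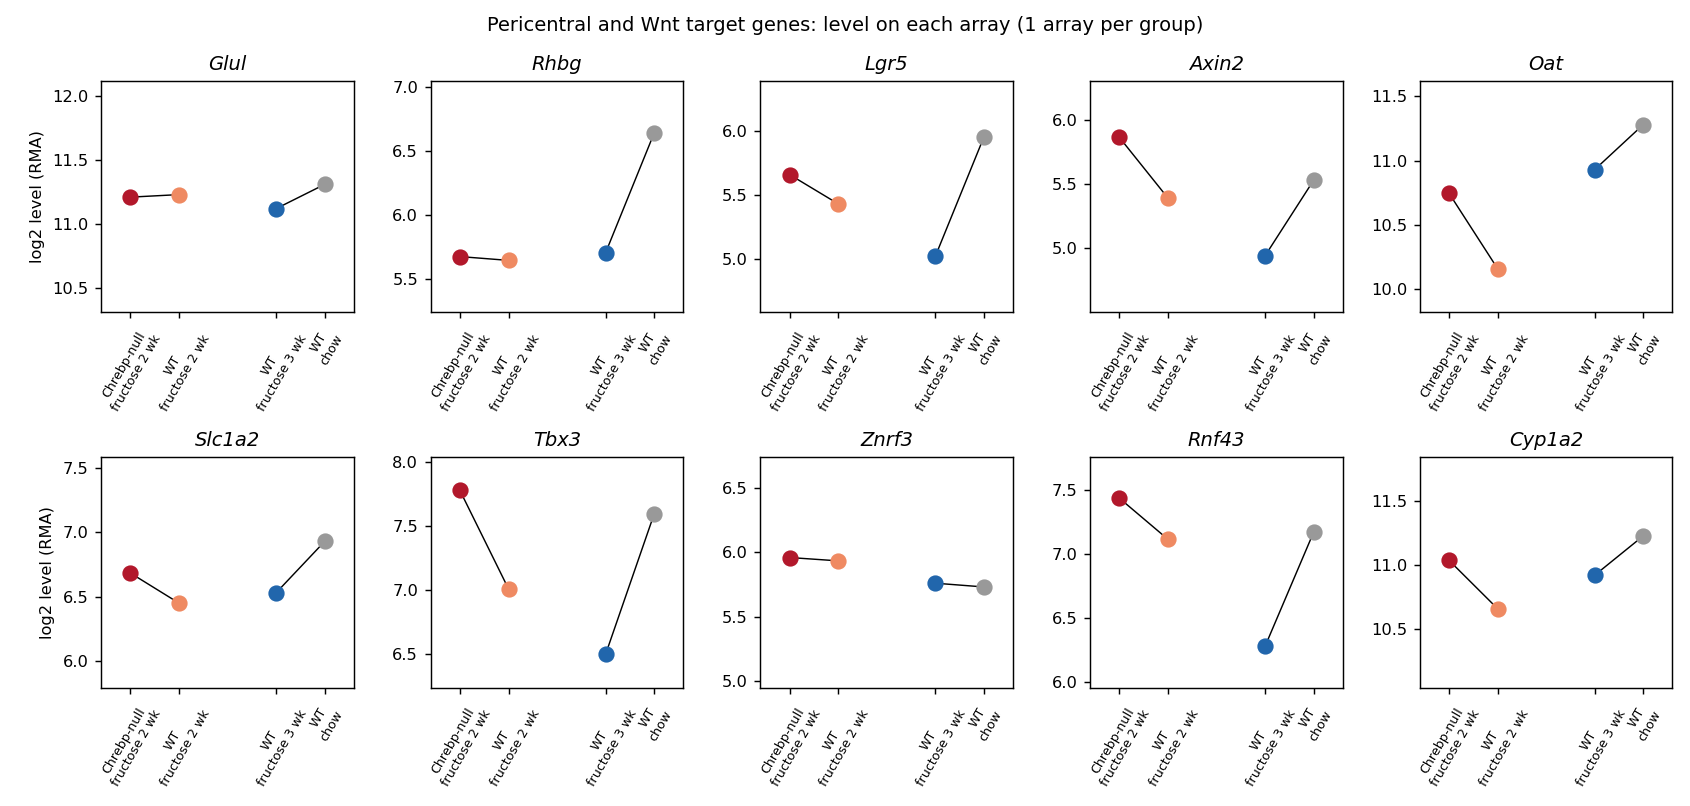
Log2 level of each gene on each of the 4 arrays (1 point per array), with the pair of each comparison joined by a line: Chrebp-null and WT at 2 weeks of fructose, then WT at 3 weeks of fructose and WT chow. Every panel spans the same 1.8 log2 units (not from 0). Rhbg is level over the 3 fructose pools and higher on chow, Tbx3 and Rnf43 are lowest at 3 weeks of fructose, and Oat is lowest in WT at 2 weeks.

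The pools fell into an order that differed between these groups of genes. The lowest pool was WT at 3 weeks of fructose for 5 genes (Glul, Lgr5, Axin2, Tbx3 and Rnf43), WT at 2 weeks for 4 (Rhbg, Oat, Slc1a2 and Cyp1a2) and chow for Znrf3. The highest was the Chrebp-null pool for 4 genes (Axin2, Tbx3, Znrf3 and Rnf43) and chow for the other 6. Neighbouring pools in that order were more than 0.43 apart for 5 genes: Rhbg (0.93 under chow), Axin2 (0.45 between the WT fructose pools), Oat (0.59 above the 2-week WT pool), Tbx3 (0.59 between chow and the 2-week WT pool, and 0.51 between the WT fructose pools) and Rnf43 (0.83 between the WT fructose pools). For the others no neighbouring pools differed beyond that spread. The share of all genes with a gap of this size was not counted. The value of 0.43 itself comes from the 2 WT fructose pools. Over 11648 genes, 3 weeks minus 2 weeks ran from -0.64 at the 5th percentile to 0.65 at the 95th. The gaps of Axin2 and Tbx3 between these pools lay inside that range, and that of Rnf43 outside it. Chow was the highest pool for 23.5% of the 12194 genes at or above the floor on any array, against 6 of the 10. A WT fructose pool was the lowest for 61.6% of them, against 9 of the 10. Shares with the Chrebp-null pool highest, or with each single WT fructose pool lowest, were not counted. Both the Chrebp-null and the chow pool lay above both WT fructose pools for 6 of the 10 genes (Lgr5, Axin2, Slc1a2, Tbx3, Rnf43 and Cyp1a2), against 24.4% of the 12194 genes. The full order Chrebp-null, chow, WT at 2 weeks, WT at 3 weeks held for Axin2, Tbx3 and Rnf43, 3 of the 10, against 9.19% of the 12194 genes. These orders were singled out after the values were seen.

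Which WT fructose pool is used decided the calls on single genes. With the 2-week WT pool over chow, which shares the chow array with the fructose comparison, Tbx3 stood at -0.59 and Rnf43 at -0.05, Rhbg at -0.99 and Oat at -1.12. Oat was then the 1 gene of the 10 at least 2-fold lower, against 1.41% of all 11622 genes, and the median was -0.50. With the Chrebp-null pool over the 3-week WT pool, which shares the null array with the Chrebp-null comparison, Tbx3 stood at 1.27, Rnf43 at 1.16, Axin2 at 0.92 and Oat at -0.18. At least 2-fold higher were then 2 of the 10, Tbx3 and Rnf43, against 3.38% of all 11772 genes, and the median was 0.18. Between the WT pools themselves, 3 weeks over 2 weeks, Rnf43 stood at -0.83, Tbx3 at -0.51 and Oat at 0.77. Set against chow, the Chrebp-null pool was 0.97 lower on the log2 scale for Rhbg, with a difference of -0.97, and 0.53 lower for Oat, with a difference of -0.53. The other 8 genes lay between -0.29 and 0.34.

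Other pericentral hepatocyte genes were set beside the 10, in a list chosen, like every list here, with earlier results of these data known. Of 18 listed, 17 were on the array under 1 symbol and all were assessed. In the fructose comparison 17 of 17 were below 0, against 56.5% of all genes, with a median of -0.41. Cyp2c54, a cytochrome of the Cyp2c family, was the 1 gene of 17 at least 2-fold lower, beside 1.16% of all genes. It read 9.94 in the 3-week fructose pool against 11.22 in the chow pool. In the Chrebp-null comparison 16 of 17 were above 0, against 63.4% of all genes, with a median of 0.37. Cyp2c50 was the 1 gene of 17 at least 2-fold higher there, beside 2.03% of all genes. It read 10.33 in the Chrebp-null pool against 9.32 in the WT pool at 2 weeks, a difference of 1.01 that only just passed 2-fold. With the trend removed none of the 17 reached 2-fold in the Chrebp-null comparison, beside 140 of all 11631 genes higher and 225 lower. With centred arrays 2 of 17 were at least 2-fold lower on fructose, beside 154 of all 11643 genes. The closely related Cyp2c genes may share probes, so their values are uncertain. Slc13a3, a dicarboxylate transporter, differed by 0.93 in the Chrebp-null and by -0.98 in the fructose comparison. Gstm3, a glutathione S-transferase, differed by 0.91 and -0.47, and Ahr, the aryl hydrocarbon receptor, by 0.53 and -0.75. Cyp2e1, an ethanol-oxidising cytochrome and a textbook pericentral gene, differed by only 0.04 and -0.04. With the trend removed 16 of 17 were below 0 on fructose, against 49.3% of all genes, and 16 of 17 above 0 in the null pool, against 49.4%.

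Genes of periportal hepatocytes were set beside them in the same way. Of 15 listed, 13 were assessed. In the fructose comparison 9 of 13 were below 0, against 56.5% of all genes, with a median of -0.26. At least 2-fold lower was 1 of 13, against 1.16% of all genes. That gene was Cdh1, E-cadherin, with 6.75 in the 3-week fructose pool against 8.03 in the chow pool. With probe sets averaged none of the 13 reached 2-fold, with a median of -0.17. Above 0 in the Chrebp-null comparison were 5 of 13, against 63.4% of all genes, the median was -0.04 and none passed 2-fold. Cyp2f2, a periportal cytochrome, differed by -0.33 in the Chrebp-null comparison and by -0.28 in the fructose comparison. Aldh1b1, a mitochondrial aldehyde dehydrogenase, differed by 0.62 and -0.26. Hsd17b13, a lipid droplet protein, differed by 0.18 and -0.45, and Pigr, the receptor that carries immunoglobulin A into bile, by -0.04 and -0.35. The difference between the pericentral and periportal lists was not tested.

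A gene below 0 in the fructose comparison and above 0 in the Chrebp-null comparison read lower in the 3-week fructose pool than on chow. The same gene read higher in the Chrebp-null pool than in the WT pool at 2 weeks, pools whose sex-linked genes also differed. Both signs held for 8 of the 10 genes, all but Glul and Znrf3. They held for 16 of the 17 other pericentral genes, 4 of the 13 periportal genes and 37.7% of the 11154 genes assessed in both. Among the 8, the Chrebp-null difference of Rhbg was only 0.03, and it was -0.07 after quantile normalization and -0.10 with the trend removed. That of Lgr5, 0.23, was -0.02 with probe sets averaged. With the 3-week WT pool in place of the 2-week one, that of Oat, 0.59, was -0.18, and that of Rhbg was -0.03. The 10 genes and the lists were chosen with earlier results of these data known, so these counts are a description only. The comparisons share no array, but each rests on 1 array per group.

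**Figure D3:**
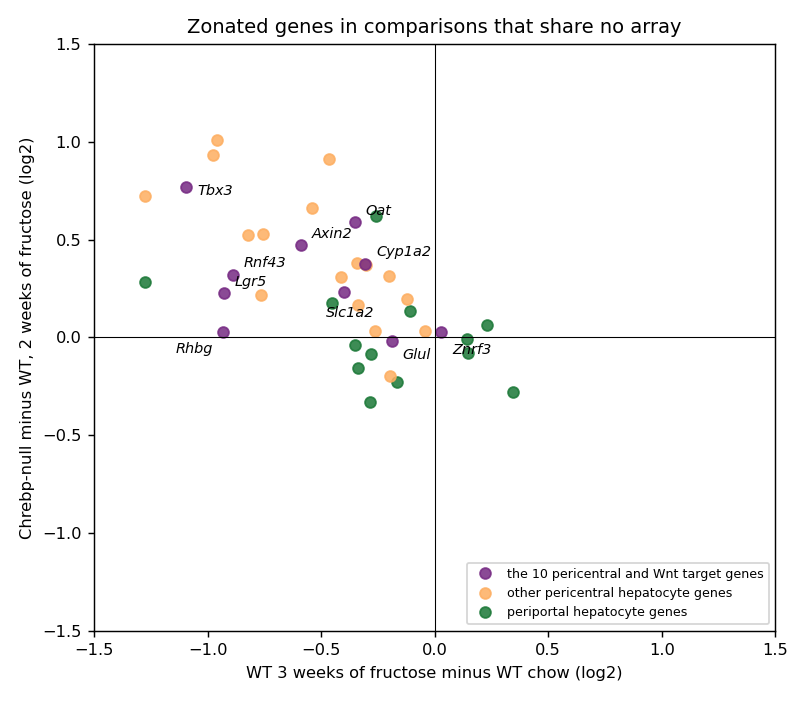
Each point is a gene, with its log2 difference in the fructose comparison (horizontal) and in the Chrebp-null comparison (vertical). Purple points are the 10 genes, orange points other pericentral genes and green points periportal genes. The upper left field, lower on fructose and higher in Chrebp-null, holds 8 of the 10 genes, 16 of 17 other pericentral genes and 4 of 13 periportal genes.

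Other Wnt feedback and target genes were mostly dim, with 10 of 14 assessed in the Chrebp-null comparison and 8 in the fructose comparison. In the Chrebp-null comparison 9 of 10 were above 0, against 63.4% of all genes, and the median was 0.53. Myc, a growth-promoting transcription factor controlled by many signals besides Wnt, was the 1 gene of 10 at least 2-fold higher, against 2.03% of all genes, with 6.90 in the Chrebp-null pool against 5.04 in the WT pool at 2 weeks. In the 3-week fructose and chow pools Myc read 6.54 and 5.98. In the fructose comparison 5 of 8 were below 0, against 56.5% of all genes, and none passed 2-fold, although 1 was at least 2-fold lower with centred or quantile-normalized arrays. The median was -0.33, and -0.13 with probe sets averaged. Nkd1 and Notum, inhibitors induced by Wnt signalling, differed by -0.98 and -0.81 on fructose and by 0.19 and 0.05 in the Chrebp-null comparison. Sfrp1, a secreted Wnt binder, differed by 0.82 in the Chrebp-null comparison (0.61 with the floor in place of its WT level of 3.31) and by 0.58 on fructose.

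Ligands and receptors of Wnt signalling were described in the same way. Of 21 genes for Wnt ligands, R-spondins and their release, 8 were assessed in the Chrebp-null and 10 in the fructose comparison, and none passed 2-fold in either. Above 0 were 7 of 8 in the Chrebp-null and 7 of 10 in the fructose comparison, against 63.4% and 43.5% of all genes. The medians of the list were 0.27 and 0.04, where those of the 10 genes were 0.28 and -0.49. With the trend removed the medians of the ligand list were 0.09 and 0.08. With centred arrays the fructose differences of that list were above 0 for 5 of 10. Rspo3, the R-spondin made by central vein endothelium, read 6.02 in the Chrebp-null pool against 5.60 in the WT pool at 2 weeks, and 5.41 in the 3-week fructose pool against 5.30 in the chow pool. Wnt9b, a ligand of the same cells, read 4.13 against 3.63 in the first pair and 3.76 against 3.73 in the second. Wnt2, made by sinusoidal endothelium, lay near the floor, with differences of 0.27 and 0.36. Wnt4 differed by 0.19 and by -0.72, the second -0.60 with its 3-week fructose level set at the floor. Porcn, which acylates Wnt ligands, differed by 0.43 and -0.36. Rspo2 read at or above the floor only in the 3-week fructose pool, at 3.72.

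Of 31 receptor and signal relay genes, 22 were assessed in the Chrebp-null and 24 in the fructose comparison, with medians of 0.01 and -0.14 and none past 2-fold, and the first of these medians was below 0 with centred, quantile-normalized, trend-corrected or averaged values (down to -0.10). Ctnnb1, which encodes beta-catenin, differed by -0.11 and -0.06. Fzd8, a Frizzled receptor, read 5.31 in the Chrebp-null pool against 5.51 in the WT pool at 2 weeks, and 5.85 in the 3-week fructose pool against 6.72 in the chow pool. Chow was its highest pool, as for Rhbg. Bcl9l, a beta-catenin coactivator, differed by 0.19 and -0.75, Fzd7 by 0.19 and -0.59, and Pygo2, another coactivator, by -0.18 and -0.67 (-0.42 with its 3-week fructose level set at the floor). Of 10 paralogues of the genes described, 7 lay below the floor on every array, among them Rhag, Rhcg, Cyp1a1 and Cyp1b1. Of all 22180 genes, 12194 were at or above the floor on any array and the rest below it on every array. Lgr6 reached it on chow alone, at 3.73, while Lgr4 differed by -0.05 and 0.06 and Axin1 by 0.05 and -0.19.

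Genes of glutamine and ammonium handling outside the pericentral set were 17 in number, of which 9 were assessed in the Chrebp-null and 8 in the fructose comparison. On fructose all 8 were below 0, against 56.5% of all genes, with a median of -0.26, and none passed 2-fold. In the Chrebp-null comparison the median was 0.08, and 2 of 9 were at least 2-fold higher, against 2.03% of all genes. Slc1a4, a transporter of serine and other neutral amino acids from the family of Slc1a2, read 6.49 in the Chrebp-null pool against 4.17 in the WT pool at 2 weeks. Slc1a5, a glutamine transporter, read 4.68 against 2.50, a difference of 2.19, or at least 1.16 with the floor in place of the WT level. Both belong with Slc1a2 to the Slc1a family, and Slc1a2 differed by 0.23. Slc38a2, a transporter of neutral amino acids, differed by -0.57, and Aldh18a1, of proline synthesis, by 0.73, or at least 0.55 on the same terms. Among 7 targets of the aryl hydrocarbon receptor listed, 2 were assessed. Nqo1, also a target of NRF2, differed by 1.99 and -0.42, and Tiparp by -0.20 and 0.21.

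**Figure D4:**
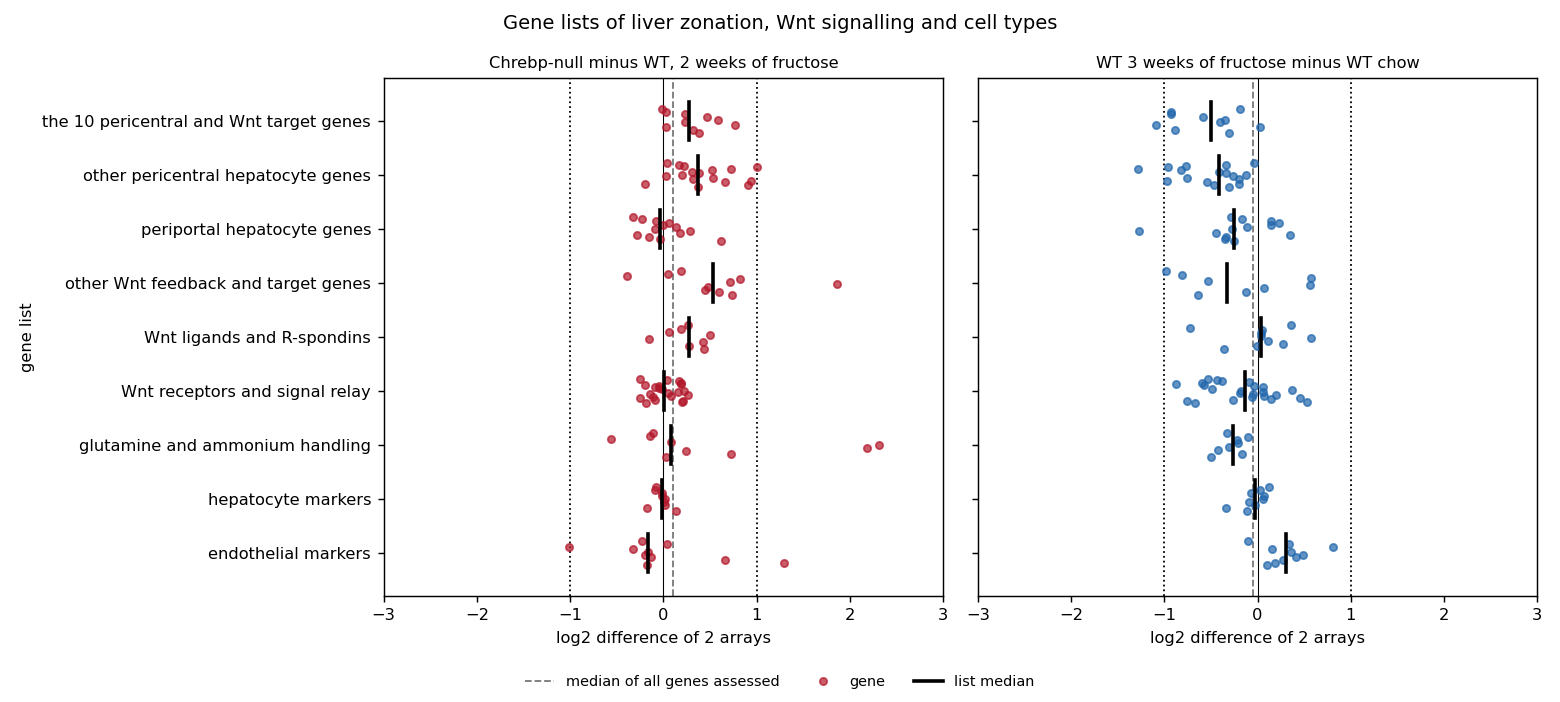
Log2 difference of each assessed gene (points) and the median (black bar) of 9 gene lists, in the Chrebp-null comparison (left) and the fructose comparison (right). The dashed line is the median of all genes assessed and dotted lines mark 2-fold. The 10 genes and the other pericentral genes have medians of 0.28 and 0.37 on the left and -0.49 and -0.41 on the right, while hepatocyte markers stay at -0.01 and -0.02.

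Among markers of other liver cells, all 10 endothelial markers were assessed. Of these, 3 were above 0 in the Chrebp-null comparison, against 63.4% of all genes, with a median of -0.17. In the fructose comparison 9 of 10 were above 0, and their median of 0.31 was between 0.27 and 0.37 under every scaling run. Lyve1, a sinusoidal endothelial receptor, read 7.19 in the Chrebp-null pool against 8.20 in the WT pool at 2 weeks, and 7.88 in the 3-week fructose pool against 7.07 in the chow pool. Thbd, thrombomodulin, differed by 1.29 in the Chrebp-null comparison and Kit, a receptor tyrosine kinase, by 0.66. Of the 10, Thbd was the 1 at least 2-fold higher there and Lyve1 the 1 at least 2-fold lower. The shares of all genes were 2.03% and 1.43%. Of 10 Kupffer cell markers Marco alone passed 2-fold, at 2.66 in the Chrebp-null comparison, against 2.03% of all genes at least 2-fold higher. The list median was -0.09 there and -0.19 on fructose. Stellate cell markers had medians of -0.06 and -0.26, with none of 10 past 2-fold. Of 8 cholangiocyte markers 3 were assessed, with medians of 0.31 and 0.05, and Sox9, also a Wnt target, differed by 0.60 and -0.64. Krt19 lay below the floor on every array. Of 8 lymphocyte markers 5 were assessed, with medians of -0.11 and -0.07 and none past 2-fold. Mean log2 levels of the endothelial list were 7.10 in the Chrebp-null pool against 7.13 in the WT pool at 2 weeks, and 7.21 in the 3-week fructose pool against 6.91 in the chow pool. The part of these cells in the values of the 10 genes was not tested.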

How the data were processed

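Per the labels' protocols, liver RNA was pooled within each group before hybridisation to a single Affymetrix array. The deposited table gives log2 levels for 41345 probe sets, which the authors made with affy and RMA, per the submitters' processing notes. The sources used here give no versions or settings, nor whether RMA was run on the 4 arrays jointly. RMA can shrink differences, most of all for weakly hybridised probe sets, and arrays have no sequencing depth.

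The values were used as deposited. The platform's annotation gave 1 symbol to 23521 probe sets, several to 1814 and none to 16010. Where a gene had several probe sets, the brightest by its mean was used. Of the 10 genes, 7 had 1 probe set and 3 had 2. Differences were computed between single arrays, with a floor at the middle of all genes' mean levels (3.52) and a threshold of 2-fold, without any test. The procedure was also run on simulated arrays with independent noise, and differences of 3-fold or more were planted in genes well above the floor. None of the 10 genes reached 3-fold in either comparison, so that run does not bear on their calls.

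The genes and the other 14 lists were chosen with earlier results of these data known. Named genes are the 10, up to 4 per other list with the largest absolute difference in either comparison among genes at or above the floor, and listed paralogues and pathway genes. For genes with a range of at least 1 over the arrays, the 3 with the nearest centred profile were also taken. Not every gene taken is printed. Tried as alternatives were median centring, no floor, a floor at the 75th percentile, quantile normalization, removal of a lowess trend (fraction 0.3), the mean of all probe sets, thresholds of 1.5-fold and 3-fold, levels below the floor set at it, and the other WT fructose array. Scripts ran in Python 3.11.15 (pandas 2.3.3, numpy 2.4.6, statsmodels 0.14.6 and, for figures, matplotlib 3.10.9).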

Additional observations from a re-analysis of the deposited data

How the results depend on the processing

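With a threshold of 1.5-fold 5 of the 10 genes were lower in the fructose comparison, Axin2 only just, beside 7.05% of all genes. At 2-fold 1 was, beside 1.16% of all genes, and with 3-fold none (0) was, beside 15 of all 11717 genes. In the Chrebp-null comparison none (0) was higher at 2-fold, beside 2.03% of all genes. With a threshold of 1.5-fold 2 were, Oat only just, beside 9.16%. With the 3-week WT array in place of the 2-week one 2 were at least 2-fold higher, beside 3.38% of all genes. The medians kept their sign under every alternative run, from -0.64 to -0.38 in the fructose and from 0.18 to 0.32 in the Chrebp-null comparison. Of the differences of single genes recomputed, 70 moved by less than 0.30, the spread per array, or not at all, and 8 by more in the fructose comparison. In the Chrebp-null comparison these counts were 72 and 5. That spread comes from the 2 WT fructose pools, which are not replicates. Many of these values could not move. All 10 genes lay above the floor on every array, so changes of the floor left the differences of genes still assessed as they were. Averaging could not move the 7 genes with 1 probe set. The counts are therefore no measure of stability. The larger moves came when the WT fructose arrays were exchanged or probe sets were averaged. Over all genes, 75 were at least 2-fold higher and 136 lower on fructose, and 93 and 105 with the trend removed. In the Chrebp-null comparison 236 were higher and 166 lower, 140 and 225 with the trend removed, 181 and 180 after quantile normalization, and 398 and 230 against the 3-week WT array. A floor at the 75th percentile left 8 of the 10 genes in the fructose and 7 in the Chrebp-null comparison. Counts over all genes were then 40 and 103, and 87 and 110. No paired analysis was possible because each group has 1 array. With 1 array per group the number of arrays limits every value.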

Other observations

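Besides Rhbg, 8 genes had a chow level at least 0.93 above all 3 fructose pools, and they are named here after their values were seen. Among them Cyp2c54, which is also pericentral, read 9.33 to 10.05 in the fructose pools and 11.22 on chow. Pcp4l1 read 5.49 to 5.77 in the fructose pools and 6.72 on chow, and Htra4, a serine protease gene, 3.57 to 3.92 and 5.13. Adgrf1, an adhesion receptor gene, read 5.87 to 6.64 in the fructose pools and 7.69 on chow, and Clec2h, a C-type lectin gene, 5.09 to 6.08 and 7.08. Atp6v0d2, a subunit of the vacuolar proton pump, read 3.97 to 5.66 in the fructose pools and 6.84 on chow. A1bg and 4921509C19Rik completed the set, both with at least 1 fructose pool below the floor. Of the 9 genes, Rhbg had the smallest spread over the fructose pools, at 0.06, and the next, Pcp4l1 and 4921509C19Rik, had 0.28.

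The genes nearest in profile were sought for Oat, Tbx3 and Rnf43, which had a range of at least 1 over the 4 arrays. The measure was the Euclidean distance between profiles centred on their means, over 4 arrays and 12193 genes. Nearest to Tbx3 were Arfgap3 (0.12), Slc13a3 (0.16) and Tmem104 (0.18), and Slc13a3 stands in the list of other pericentral genes. Nearest to Rnf43 were Med25 (0.06), Stk40 (0.08) and Shroom3 (0.09), and nearest to Oat were Crybb3 (0.05), 4930527J03Rik (0.05) and Hap1 (0.07), of which the last 2 read below the floor on at least 1 array. With 4 arrays and so many genes, near profiles occur for any gene.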
